A study of Homo sapiens with 6 samples.

Results

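The genes encoded by the mitochondrial genome were taken as the rows of the deposited count table whose gene name begins with MT-, which gave 37 of the 33451 genes listed. They comprised 13 protein genes, 2 rRNA genes and 22 tRNA genes, and their positions in the table equalled those of GENCODE 29 on GRCh38 for 37 of 37. The cells were MDA-MB-453, an established human breast cancer line of the luminal androgen receptor type, cultured in medium with fetal bovine serum. The experiment group (EG) received 100 nM 25(OH)D, a vitamin D metabolite made in the liver and carried in the circulation, for 5 days, and the control group (CG) received the solvent for the same 5 days. Each group held 3 libraries of a stranded mRNA kit, and the labels do not say whether these came from separate cultures, so the p-values measure the spread between these libraries.

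The human mitochondrial genome is a small circular DNA that is transcribed from both of its strands as long precursor RNAs. The tRNA genes lie between most of the protein and rRNA genes, and enzymes that cut at the tRNA ends release the mRNAs and rRNAs from the precursor, an arrangement known as tRNA punctuation. The protein genes encode core subunits of respiratory complexes I, III and IV and of the ATP synthase (complex V), whereas all other subunits, and every protein that copies, transcribes, processes or translates mitochondrial genes, are encoded in the nucleus.

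The libraries held between 33268860 and 40928176 counts. Every one of the 9 fixed markers of this cell line was expressed. The 12 markers of other cells summed to between 43.0 and 45.4 CPM in CG (CPM, counts scaled to a common library size after TMM). In EG the sum was between 47.6 and 55.2 CPM. COL1A1 made up most of the sum but was lower in EG, at 37.5 ± 1.39 CPM in CG and 33.1 ± 1.19 CPM in EG (SD, n = 3). CD68, a lysosomal protein of macrophages that other cells also make, was higher, at 4.93 ± 0.821 in CG and 15.9 ± 3.18 in EG. The T cell marker CD3E was at 0 CPM in 5 of the 6 libraries, and the epithelial hormone receptors ESR1 and PGR were near 0. Whether any change of cell mixture had a part in the results was not tested.

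The MT- genes covered a wide range of levels. MT-ATP6, a subunit of the proton channel of the ATP synthase, took 15.9% of the counts on MT- genes on average over the 6 libraries, MT-ND5 took 14.7%, MT-ND4 10.6% and MT-CO1 9.77%, so that these genes together held 51.0%. Per length, in RPKM (counts scaled to the length of the gene and to the total count of the library), MT-ATP8 was highest at a mean of 22651 and MT-ATP6 followed at 19813. The lowest protein gene was MT-ND1, a membrane subunit of complex I, at 1649 RPKM, and MT-ATP8 lay above it by between 12.9-fold and 14.7-fold in each library. MT-ATP8 has only 207 bases and MT-ND4L 297. How far reads that reach beyond a short gene raised its level per length was not tested. The tRNA genes ran from 27.5 RPKM for MT-TF to 5342 RPKM for MT-TC. These levels are those of an mRNA library, which selects polyadenylated RNA, and the sequenced reads, before trimming, were longer than any tRNA gene, so RNA precursors and mature tRNAs were not told apart.

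**Figure D1:**
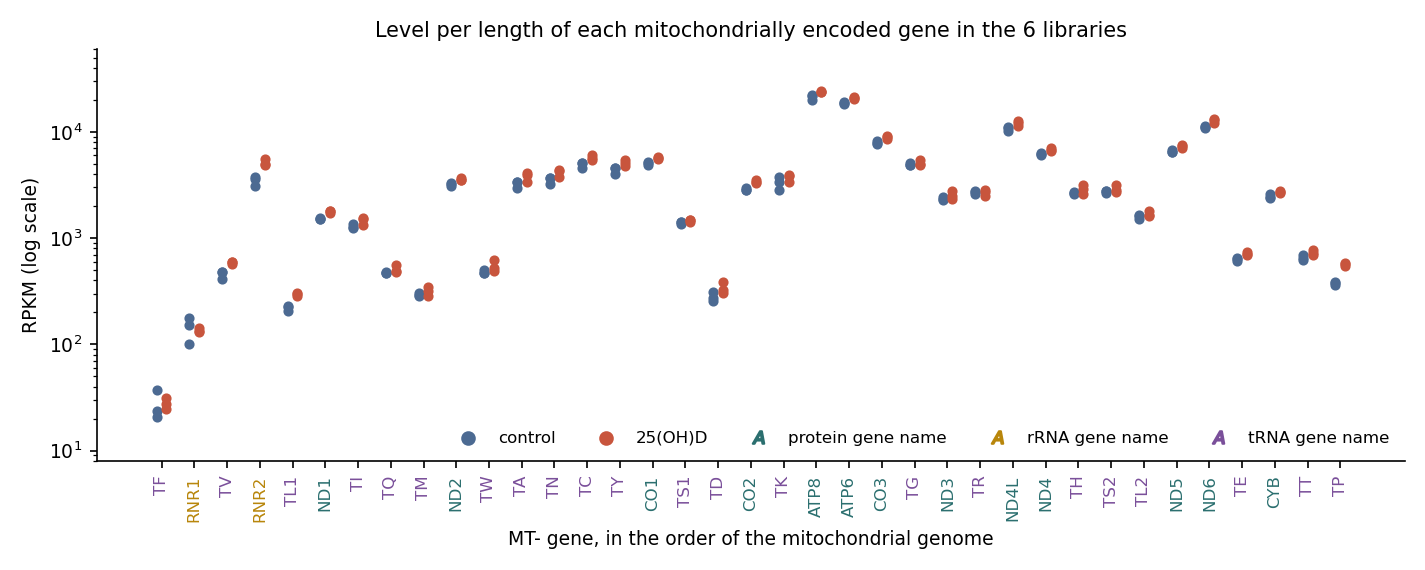
Level of each MT- gene in RPKM (log axis), in the order of the mitochondrial genome, with 1 point per library, control in blue and 25(OH)D in red. MT-ATP8 and MT-ATP6 stand highest, and MT-TF and MT-RNR1 stand lowest, at means of 27.5 and 139 RPKM.

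The 2 rRNA genes, both transcribed from the same promoter region, stood far apart in level. MT-RNR2, the 16S rRNA of the large subunit of the mitochondrial ribosome, stood at a mean of 4304 RPKM, and MT-RNR1, the 12S rRNA of the small subunit, at 139 RPKM. Per length MT-RNR2 exceeded MT-RNR1 by between 21.0-fold and 41.1-fold in each library, which describes what the library caught and not the ratio of the 2 rRNAs in the cell.

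MT-ATP8 and MT-ATP6 lie on 1 bicistronic mRNA and overlap, as do MT-ND4L and MT-ND4. The shared stretch of the first pair is shown because a read inside it belongs to both genes and because it makes up 22.2% of MT-ATP8. It runs from the start codon of MT-ATP6 to the last annotated base of MT-ATP8 (GRCh38, transcribed sense, 46 bases, chrMT:8527-8572).
MT-ATP8 and MT-ATP6 shared bases: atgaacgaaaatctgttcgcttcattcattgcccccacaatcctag
MT-ND4L and MT-ND4 share 7 bases, or 2.36% of MT-ND4L. How the counting treated reads that lie on more than 1 gene is not given in the sources used here. The per-length level of MT-ATP8 was between 1.08-fold and 1.19-fold that of MT-ATP6, and that of MT-ND4L between 1.67-fold and 1.80-fold that of MT-ND4.

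The first comparison was the share of each library that fell on the MT- genes. The share on protein genes was 7.22%, 7.09% and 6.99% in the CG libraries and 8.13%, 7.81% and 7.91% in the EG libraries, or 7.10% ± 0.118 against 7.95% ± 0.162 (SD, n = 3). The share on rRNA genes was 0.487%, 0.579% and 0.599% in CG and 0.789%, 0.776% and 0.876% in EG, or 0.555% ± 0.0595 against 0.814% ± 0.0544. The share on tRNA genes was 0.275% ± 0.0105 in CG and 0.308% ± 0.0122 in EG. In each class the 3 EG libraries lay above the 3 CG libraries, by 1.12-fold for protein genes, 1.47-fold for rRNA genes and 1.12-fold for tRNA genes. Each comparison gave p = 0.1 in a two-sided exact permutation test, which is the smallest p that 3 libraries against 3 allow, and 0.114 after Benjamini-Hochberg adjustment over 8 shares. In bulk RNA, more mitochondrial genomes, more RNA from each and less nuclear RNA beside them cannot be told apart, and these data hold no measure of mitochondrial DNA.

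**Figure D2:**
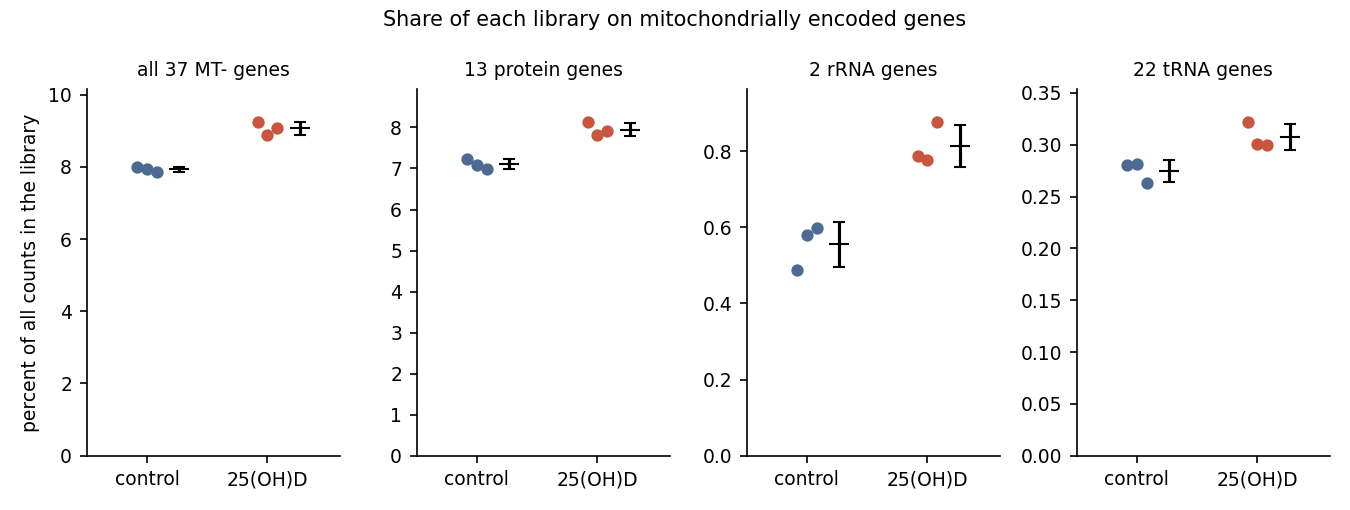
Percent of all counts of a library on all MT- genes and on their protein, rRNA and tRNA genes, with 1 point per library and the mean ± SD beside them; each axis starts at 0. The 3 EG libraries lie above the 3 CG libraries in each of the 4 panels, with means of 7.10% and 7.95% for the protein genes.

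Of the counts on MT- genes, the protein genes held 90.4%, 89.2% and 89.0% in CG and 88.0%, 87.9% and 87.1% in EG. The rRNA genes held 6.10%, 7.28% and 7.63% in CG and 8.54%, 8.73% and 9.65% in EG. In neither did the groups overlap, and each gave an exact permutation p = 0.1. The tRNA genes held 3.47% ± 0.103 in CG and 3.39% ± 0.0908 in EG, with overlapping groups (exact permutation p = 0.4). The log2 ratio of rRNA to protein counts was higher in EG by 0.39, from -3.68 ± 0.183 to -3.29 ± 0.102, with no overlap, whereas the log2 ratio of tRNA to protein counts was -4.69 ± 0.0391 and -4.69 ± 0.0312 (SD, n = 3). After adjustment over the 12 ratios compared, no exact permutation p was below 0.6.

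Gene by gene, most MT- genes were modestly higher with 25(OH)D. The edgeR quasi-likelihood test over the 18183 genes that passed the low-count filter called 28 of the 37 MT- genes higher and 0 lower at a Benjamini-Hochberg adjusted p under 0.05. Over all genes tested, 17.3% were called higher and 16.5% lower. All 37 MT- genes passed the filter, and the smallest count of any of them in any library was 54. Their median log2 fold change was 0.22, with a range from -0.04 to 0.64, beside a median of -0.01 over all genes tested. The CPM values of the groups did not overlap for 28 of 37, beside 45.7% of all genes tested in either direction, 22.8% with EG above CG and 22.9% with EG below it. The study's limits for a changed gene were a log2 fold change beyond 1 in either direction with p under 0.05 before adjustment, and no MT- gene passed them, beside 6.65% of all genes tested (4.02% higher and 2.63% lower). The number called higher fell to 7 when limma was fitted to log2 RPKM values with either pseudocount, where 20 of the 37 had a higher level at an unadjusted p under 0.05. The 7 were MT-RNR2, MT-TV, MT-TL1, MT-TP, MT-ND1, MT-CO2 and MT-TE. The shares of all genes given above come from edgeR and are not a background for these limma counts.

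**Figure D3:**
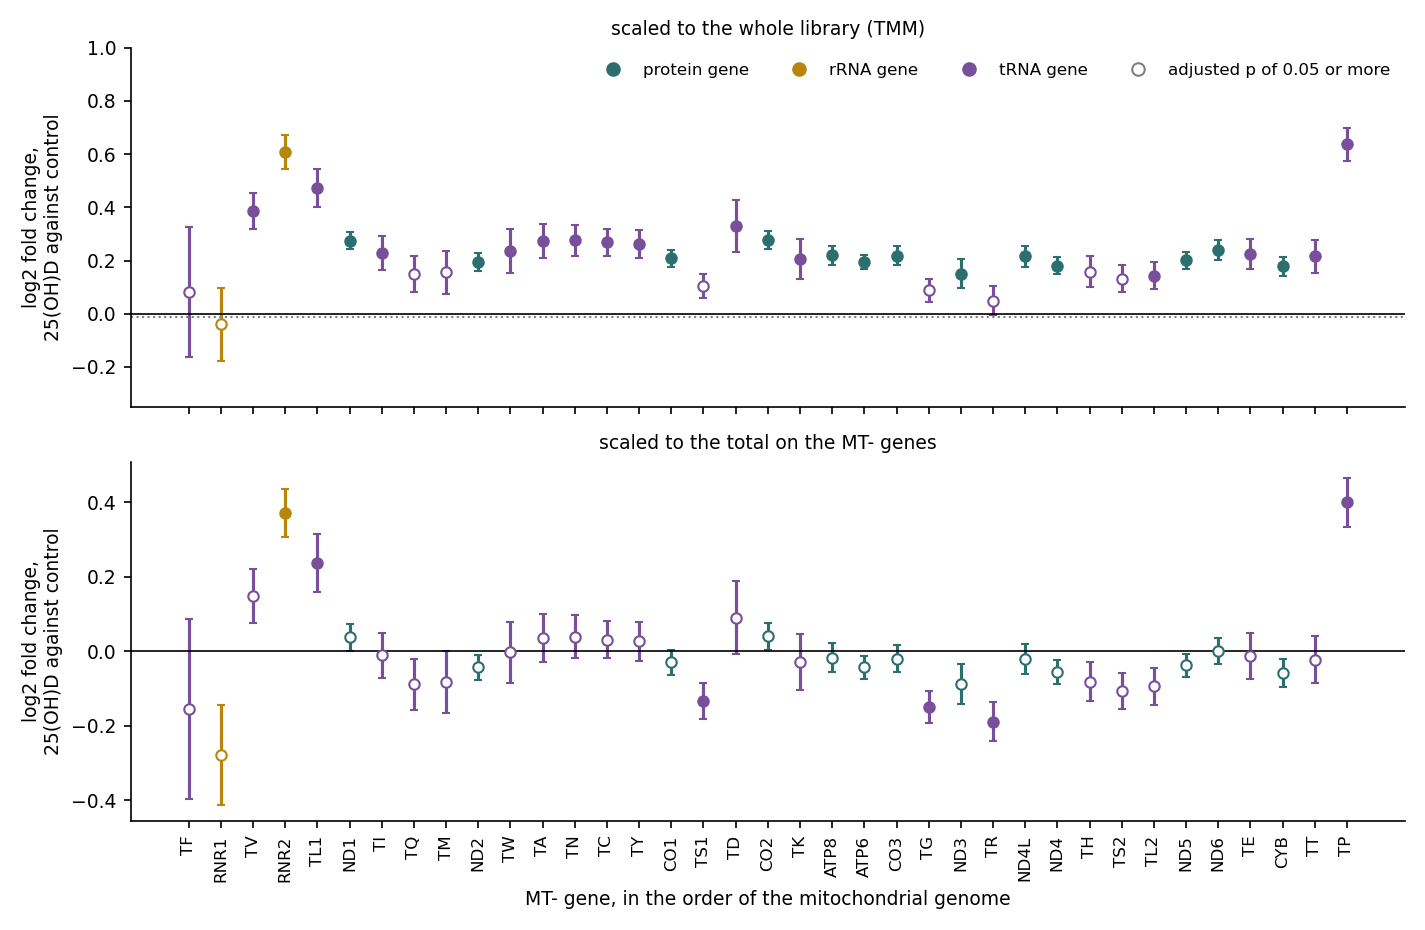
Log2 fold change of each MT- gene, 25(OH)D against control, with its standard error, in the order of the mitochondrial genome: above, scaled to the whole library, where the dotted line is the median of all genes tested (-0.01); below, scaled to the total on the MT- genes. Filled points had an adjusted p under 0.05. MT-RNR2 (0.61) and MT-TP (0.64) stand highest above, and the protein genes lie within a band from 0.15 to 0.28.

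The 13 protein genes moved as a narrow band: all 13 were called higher, beside 17.3% of all genes tested, with log2 fold changes from 0.15 to 0.28. The complex I genes were MT-ND1 (0.27), MT-ND2 (0.19), MT-ND3 (0.15), MT-ND4L (0.22), MT-ND4 (0.18), MT-ND5 (0.20) and MT-ND6 (0.24). They encode the core subunits of the membrane arm with its proton pumps. MT-ND1 was at 1413, 1416 and 1462 CPM in CG and at 1747, 1677 and 1766 CPM in EG (SE of the log2 fold change 0.0328, adjusted p = 1.42e-05 by edgeR). All 3 EG libraries lay well above the CG range. MT-ND3 had the smallest change, with 772, 797 and 844 CPM in CG and 878, 820 and 979 CPM in EG (SE 0.0546, adjusted p = 0.0482). It was the only protein gene whose groups overlapped, and its call was lost without any 1 of 4 libraries (EG replicate 1, EG replicate 3, CG replicate 1 or CG replicate 2), with upper-quartile factors (0.11) and with library sizes alone (0.11).

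MT-CYB, the cytochrome b of complex III, was at 2905, 2745 and 2681 CPM in CG and 3244, 3117 and 3072 CPM in EG (log2 fold change 0.18, SE 0.0358, edgeR adjusted p = 0.00132). Of the 3 core subunits of cytochrome c oxidase (complex IV), MT-CO2, which receives electrons from cytochrome c, changed most, from 1915, 1910 and 1994 CPM to 2436, 2327 and 2290 CPM (log2 fold change 0.28, SE 0.0338, edgeR adjusted p = 1.68e-05). MT-CO1, which holds the site where oxygen is reduced, changed by 0.21 and MT-CO3 by 0.22 on the log2 scale. The ATP synthase genes MT-ATP8 and MT-ATP6 changed by 0.22 and 0.19. MT-ATP6 was at 12753, 12634 and 12444 CPM in CG and at 14776, 14250 and 14234 CPM in EG, a rise of 14.3%. The ratios between the complexes were compared next. The log2 ratio of complex I to complex IV counts was 1.13 ± 0.0200 in CG and 1.12 ± 0.0208 in EG, that of complex V to complex IV 0.11 ± 0.0360 and 0.09 ± 0.00896, and that of MT-CYB to complex IV -2.51 ± 0.0597 and -2.55 ± 0.0285, with overlapping groups in each.

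MT-ND6, a complex I subunit, is the only protein gene read from the other DNA strand (it lies in the light-strand transcript, opposite the stretch between MT-ND5 and MT-CYB). It was at 5818, 5676 and 5759 CPM in CG and 6911, 6357 and 7101 CPM in EG (log2 fold change 0.24, SE 0.0373, edgeR adjusted p = 0.000169). Its log2 ratio to the 12 heavy-strand protein genes was -3.48 ± 0.0175 in CG and -3.45 ± 0.0683 in EG, with overlapping groups. Its level of 11919 RPKM was 1.73-fold that of MT-ND5 on average. In a check chosen after seeing the data, 29 nuclear genes that lie at least 95% inside exons of an opposite-strand gene with at least 50 RPKM stood at a median of 0.354 times the per-length level of that opposite gene, and 12 of the 29 at 0.9 times or more. The kit keeps the strand, but the strand setting of the counting is not given in the sources used here. The treatment of reads on more than 1 gene is not given either, so these ratios could not settle the strand setting. For MT-ND6 and the light-strand tRNA genes, reads of the 2 strands can therefore not be told apart.

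Of the rRNA genes, MT-RNR2 was called higher and MT-RNR1 was not. MT-RNR2 was at 4694, 5553 and 5765 CPM in CG and at 7914, 7689 and 8814 CPM in EG, a rise of 52.5% (log2 fold change 0.61, SE 0.0646, edgeR adjusted p = 4.26e-06). Every EG library lay above every CG library, and the log2 fold change stayed between 0.53 and 0.67 when any 1 library was left out. MT-RNR1 was at 94.8, 142 and 168 CPM in CG and at 127, 136 and 131 CPM in EG (log2 fold change -0.04, SE 0.136, adjusted p = 0.852). The CG libraries enclosed the EG libraries, with CG replicate 1 lowest, and without that library MT-RNR1 was called lower at -0.24 (edgeR adjusted p = 0.0111). The log2 ratio of MT-RNR2 to MT-RNR1 was 5.63, 5.28 and 5.10 in CG and 5.97, 5.82 and 6.07 in EG, with no overlap (exact permutation p = 0.1, the smallest possible).

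**Figure D4:**
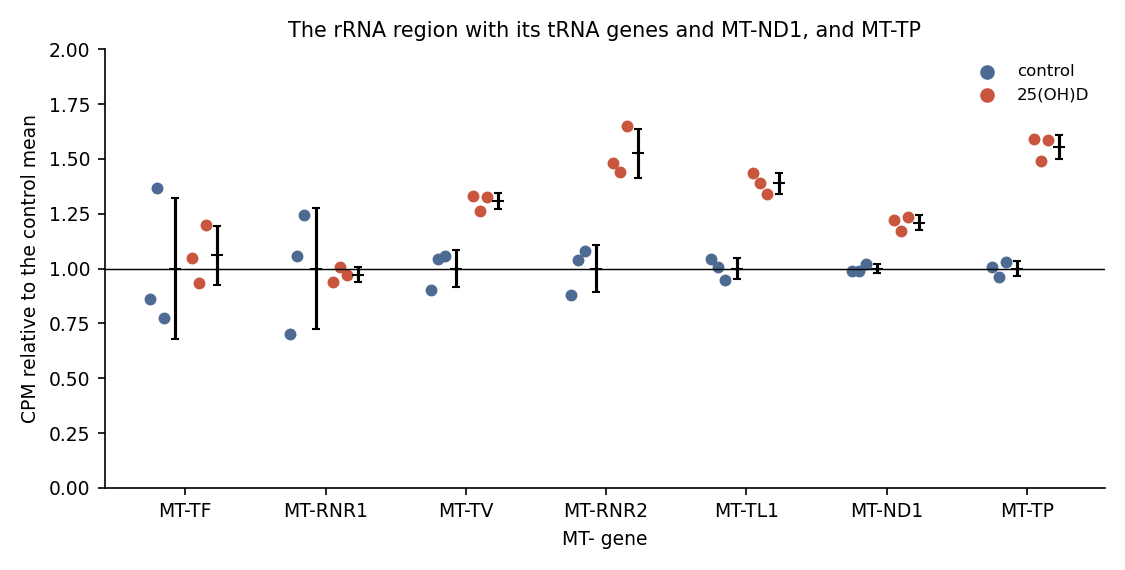
CPM of each library divided by the mean of the control libraries, for the 5 genes from MT-TF to MT-TL1, the next gene MT-ND1, and MT-TP, with the mean ± SD beside the points. MT-RNR2, MT-TV, MT-TL1, MT-ND1 and MT-TP have no overlap between groups, and MT-TF and MT-RNR1 overlap, with the widest spread in control.

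The tRNA genes on either side of MT-RNR2 were higher as well. MT-TV, the valine tRNA, joins MT-RNR2 with no base in between, and MT-TL1, the leucine tRNA that reads UUA and UUG codons, follows it directly. The junctions are shown as DNA of the transcribed sense, with the tRNA gene in capitals (GRCh38, chrMT:1651-1690 and chrMT:3210-3249).
MT-TV to MT-RNR2: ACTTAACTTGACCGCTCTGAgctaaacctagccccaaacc
MT-RNR2 to MT-TL1: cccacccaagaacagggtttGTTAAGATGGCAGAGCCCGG
MT-TV was at 28.2, 32.7 and 33.1 CPM in CG and at 41.7, 39.6 and 41.5 CPM in EG (log2 fold change 0.39, SE 0.0690, edgeR adjusted p = 0.00054). MT-TL1 was at 17.1, 16.4 and 15.5 CPM in CG and at 23.4, 22.7 and 21.9 CPM in EG (log2 fold change 0.47, SE 0.0726, edgeR adjusted p = 0.000147). Neither gene had overlapping groups. On the outer side, MT-TF, the phenylalanine tRNA that opens the region before MT-RNR1, had between 54 and 98 counts in a library and was not called (log2 fold change 0.08, SE 0.244, adjusted p = 0.833). Along the stretch the log2 fold changes were thus 0.08, -0.04, 0.39, 0.61, 0.47 and 0.27 for MT-TF, MT-RNR1, MT-TV, MT-RNR2, MT-TL1 and MT-ND1. Reads that cross a junction can be counted on a neighbour, and how far the values of MT-TV and MT-TL1 come from reads of MT-RNR2 was not tested.

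Of the 22 tRNA genes, 14 were called higher and none lower, beside 17.3% higher and 16.5% lower over all genes tested. Their median log2 fold change was 0.22. The tRNA gene with the highest log2 fold change was MT-TP, the proline tRNA, which lies in the light-strand transcript, next to the control region. Its change was within the error of that of MT-RNR2. MT-TP was at 25.4, 24.3 and 26.0 CPM in CG and at 40.2, 37.7 and 40.0 CPM in EG, a rise of 55.5% (log2 fold change 0.64, SE 0.0615, edgeR adjusted p = 1.65e-06). Its neighbour MT-TT, the threonine tRNA of the opposite transcript, ends 2 bases away from it and changed by 0.22.

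The 4 light-strand tRNA genes that lie side by side between MT-ND2 and MT-CO1, MT-TA, MT-TN, MT-TC and MT-TY (alanine, asparagine, cysteine and tyrosine), had log2 fold changes of 0.27, 0.28, 0.27 and 0.26, with edgeR adjusted p-values from 0.000737 to 0.00439. They were also among the highest tRNA genes, at 3507 to 5342 RPKM. MT-TA and MT-TN lie 1 base apart, MT-TN and MT-TC 31 bases apart, and MT-TC and MT-TY overlap. The reads before trimming were longer than any tRNA gene, so a read can fall on more than 1 of the 4. How far their values come from the same reads was not tested. In each of the 4, CG replicate 3 was the lowest CG library and EG replicate 1 the highest EG library. This order was not particular to them. Over the 22 tRNA genes, CG replicate 3 was lowest for 10 and EG replicate 1 highest for 16. The other 7 called higher were MT-TI (0.23), MT-TW (0.23), MT-TD (0.33), MT-TK (0.21), MT-TL2 (0.14), MT-TE (0.22) and MT-TT (0.22). Of these, the groups of MT-TI and MT-TK overlapped. The call was lost without EG replicate 1 or CG replicate 2 for MT-TI (log2 fold change 0.20 and 0.22), without any 1 library but EG replicate 2 for MT-TW (down to 0.14), without EG replicate 1, CG replicate 1 or CG replicate 2 for MT-TD (down to 0.22), without EG replicate 2, EG replicate 3, CG replicate 2 or CG replicate 3 for MT-TK (down to 0.12), without EG replicate 1, CG replicate 2 or CG replicate 3 for MT-TL2 (down to 0.10), and without EG replicate 1 or CG replicate 3 for MT-TT (down to 0.17). The calls of MT-TW, MT-TK, MT-TL2 and MT-TT were also lost with upper-quartile factors and with library sizes alone. The tRNA genes that did not pass were MT-TF, MT-TQ (0.15), MT-TM (0.15), MT-TS1 (0.10), MT-TG (0.09), MT-TR (0.05), MT-TH (0.16) and MT-TS2 (0.13). The log2 ratio of light-strand to heavy-strand tRNA counts was -0.17 ± 0.0447 in CG and -0.06 ± 0.0986 in EG, with overlapping groups.

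To ask which MT- genes moved differently from the rest, the same test was run with the library size set to the total on the MT- genes. In that scaling 49.7% of all genes tested were called, 8.08% higher and 41.6% lower. Of the MT- genes, 6 differed from the common movement, 3 above and 3 below it. Above it were MT-RNR2 (0.37, edgeR adjusted p = 0.000155), MT-TP (0.40, adjusted p = 9.8e-05) and MT-TL1 (0.24, adjusted p = 0.0181). Below it were the serine tRNA MT-TS1 (-0.13, adjusted p = 0.0284), the glycine tRNA MT-TG (-0.15, adjusted p = 0.00773) and the arginine tRNA MT-TR (-0.19, adjusted p = 0.0066). No protein gene differed from the total, but the protein genes held between 87.1% and 90.4% of that total in each library, so that their closeness to it follows largely from the scaling. MT-TV missed the threshold (0.15, adjusted p = 0.0993), as did MT-RNR1 (-0.28, adjusted p = 0.0986).

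The tRNA genes that went above or below the total are printed in the sense of the tRNA (GRCh38 positions given with each; MT-TP and MT-TS1 lie on the light-strand transcript), with the anticodon in capitals.
MT-TL1, chrMT:3230-3304: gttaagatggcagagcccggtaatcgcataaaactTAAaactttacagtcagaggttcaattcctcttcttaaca
MT-TP, chrMT:15956-16023: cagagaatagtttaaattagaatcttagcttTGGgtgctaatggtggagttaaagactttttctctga
MT-TS1, chrMT:7446-7514: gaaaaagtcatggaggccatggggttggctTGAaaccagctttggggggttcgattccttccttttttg
MT-TG, chrMT:9991-10058: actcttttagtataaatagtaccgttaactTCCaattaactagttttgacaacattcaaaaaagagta
MT-TR, chrMT:10405-10469: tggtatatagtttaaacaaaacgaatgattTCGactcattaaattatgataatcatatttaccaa
MT-TG and MT-TR flank MT-ND3, and these genes had the smallest changes of their part of the genome, between MT-CO3 (0.22) and MT-ND4L (0.22). MT-TG was at 326, 340 and 331 CPM in CG and 375, 336 and 348 CPM in EG. MT-TR was at 165, 176 and 174 CPM in CG and 181, 163 and 190 CPM in EG. Both overlapped between groups, and neither was called different from CG on the whole-library scale. MT-TS1 was at 96.1, 92.6 and 96.8 CPM in CG and at 104, 99.0 and 104 CPM in EG, with no overlap and no call on the whole-library scale.

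The libraries did not all contribute alike. EG replicate 1 was the highest EG library for 24 of the 37 MT- genes and EG replicate 2 the lowest for 21. In CG, replicate 1 was highest for 16 and lowest for 14, and replicate 3 was highest for 13 and lowest for 17. Among the 13 protein genes, CG replicate 1 was highest for 9 and EG replicate 1 for 8, and CG replicate 3 and EG replicate 2 were each lowest for 7. Within a group the coefficient of variation was at most 8.98% for any protein gene, whereas it reached 32.0% for MT-TF and 27.4% for MT-RNR1 in CG.

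Copies of mitochondrial genes in nuclear chromosomes share sequence with the MT- genes, and reads from one can be counted on the other. Of the bases of MT-CO1, 79.6% lay in stretches of 50 bases or more found in another annotated transcript of GENCODE 29. The share was 79.3% for MT-ATP6, 77.0% for MT-CO2, 60.4% for MT-ND2, 59.9% for MT-CO3, 44.2% for MT-ND6 and 41.6% for MT-RNR2. It was 36.3% for MT-ND1, 30.0% for MT-ATP8, 21.0% for MT-ND4, 20.9% for MT-ND5 and 5.43% for MT-CYB. No such stretch was found for MT-RNR1, MT-ND3, MT-ND4L or any tRNA gene. The table listed 137 nuclear copies, which together took 0.335% ± 0.00174 of the counts in CG and 0.370% ± 0.0150 in EG. MTATP6P1, the copy with the most counts, stood at 22.6% of the counts per base of MT-ATP6 and changed by 0.19 on the log2 scale, as MT-ATP6 did, and MTND2P28 at 10.1% of MT-ND2, with a change of 0.27. MTRNR2L12, a nuclear copy of the MT-RNR2 region, held 0.0113% of the counts per base of MT-RNR2. It had 8 to 16 counts in CG and 22 to 30 in EG and was called higher (log2 fold change 1.20, edgeR adjusted p = 0.0287). MTRNR2L8, with 64 to 80 counts in a library, changed by -0.04 and was not called. Of the 21 copies tested, 3 were called higher and 1 lower, beside 17.3% and 16.5% of all genes, and their median was -0.04. How many reads of these copies came from mitochondrial RNA was not tested.

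The respiratory complexes also need 78 fixed nuclear-encoded subunits, all of which were tested. Of these, 24 were called higher and none lower, with a median log2 fold change of 0.12, beside 17.3% higher and 16.5% lower and a median of -0.01 over all genes tested. Limma on log2 RPKM called 14 of them higher with 1 added and 15 with 0.1 added. The edgeR shares over all genes are not a background for these limma counts. With library sizes alone the median was 0.0753. Complex IV had 7 of 11 higher with a median of 0.23, complex III 3 of 9 with a median of 0.17, complex II, which has no mitochondrial gene, 2 of 4 with a median of 0.14, complex V 5 of 17 with a median of 0.12, and complex I 7 of 37 with a median of 0.09. SDHA, the flavoprotein of complex II, rose from 186, 178 and 177 CPM in CG to 275, 284 and 256 CPM in EG (log2 fold change 0.59, edgeR adjusted p = 1.25e-07). UQCRQ of complex III changed by 0.50, NDUFA13 of complex I by 0.44, COX6C of complex IV by 0.38 and ATP5E of the ATP synthase by 0.34. The log2 ratio of nuclear to mitochondrial subunit counts was -3.86 ± 0.0510 in CG and -3.95 ± 0.0406 in EG for complex I, -1.80 ± 0.102 and -1.75 ± 0.0564 for complex III, -3.62 ± 0.0770 and -3.58 ± 0.0614 for complex IV, and -3.61 ± 0.0298 and -3.66 ± 0.0695 for complex V. In each complex the groups overlapped, and the exact permutation p lay between 0.2 and 0.5.

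**Figure D5:**
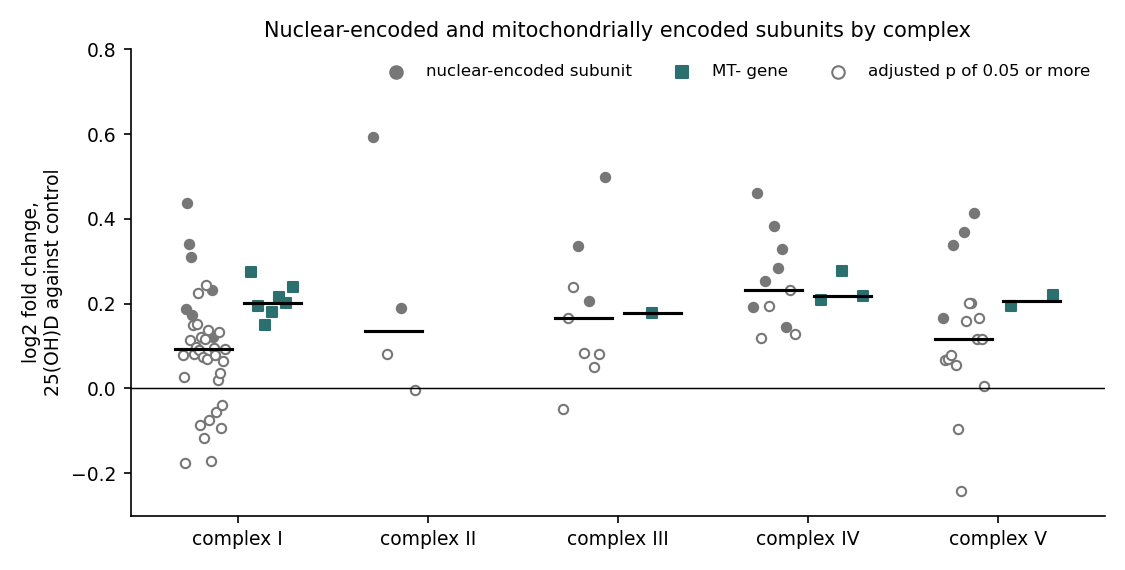
Log2 fold change of each subunit gene by respiratory complex, nuclear-encoded subunits as grey circles and MT- genes as green squares, open where the adjusted p was 0.05 or more, with the median of each set as a bar. The MT- genes lie between 0.15 and 0.28 in complexes I, III, IV and V, within the wider range of the nuclear-encoded subunits.

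The nuclear-encoded genes that copy and express the mitochondrial genome were held in 7 lists, whose counts are to be set against the 17.3% of all genes tested that were higher and the 16.5% that were lower. Of the 8 transcription genes, 1 was higher and 3 lower. TFAM, which packages mitochondrial DNA and starts its transcription, fell from 80.6 ± 0.925 to 60.7 ± 5.19 CPM (log2 fold change -0.41, edgeR adjusted p = 9.61e-05), and POLRMT, the mitochondrial RNA polymerase, fell by 0.16 (adjusted p = 0.0347). MTERF4, which guides an rRNA methyltransferase to the large ribosomal subunit, fell by 0.40, and MTERF2 rose by 0.24. The transcription factor TFB2M (-0.09) and the elongation factor TEFM (-0.08) did not pass. Of the 16 genes of replication and nucleotide supply, 2 were higher and 6 lower, among them the DNA polymerase POLG (-0.19), the helicase Twinkle (listed as C10orf2, -0.32), the topoisomerase TOP1MT (-0.47) and the thymidine kinase TK2 (0.56).

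Of the 29 genes of mitochondrial RNA processing and stability, 2 were higher and 4 lower, with a median of -0.01. TRMT10C, a subunit of the mitochondrial RNase P that cuts the 5′ end of tRNAs, fell by 0.20 (edgeR adjusted p = 0.018). The nuclease subunit of the same enzyme (listed as KIAA0391, 0.03), the 3′ end nuclease ELAC2 (0.04) and the pair LRPPRC (0.09) and SLIRP (-0.10), which stabilises mitochondrial mRNAs, did not pass. ERAL1, a chaperone of the 12S rRNA, fell by 0.30, and REXO2, which degrades short RNAs, rose by 0.25. Of the 24 genes of tRNA and rRNA modification, none was higher and 6 were lower, CDK5RAP1 by 0.31, and of the 22 aminoacyl-tRNA synthetases none was higher and 3 were lower, with GARS, the glycyl-tRNA synthetase of both cytosol and mitochondria, at -0.80.

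Of the 82 mitochondrial ribosomal protein genes, 5 were higher and 14 lower, with a median of -0.05. MRPS15 rose by 0.35 and MRPL16 fell by 0.48. Of the 13 translation factors, 1 was higher (MTRF1L, 0.23) and 4 were lower (MTIF2 by 0.33). Of the 10 regulators of mitochondrial biogenesis, 2 were higher and 2 lower. ESRRA rose by 0.59 and PPARGC1B by 0.28, whereas PPARGC1A, a coactivator present at only 3.52 ± 0.389 CPM in CG, fell by 0.87 and YY1 by 0.23. NRF1 was at -0.02 and did not pass. Of the 12 genes fixed as measures of mitochondrial mass, 1 was higher (VDAC2, 0.18) and 2 were lower (TIMM44 by 0.42). Of all genes tested, 33.8% were called in either direction. The share was above that among the transcription, replication, translation factor and regulator genes, and below it in the other lists.

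Among 7 tested RNAs that stay in the nucleus or lack a poly(A) tail, none was called higher and 2 were called lower. Over all genes tested the shares were 17.3% higher and 16.5% lower. All 7 had a log2 fold change below 0, and their median was -0.45. The median log2 level of the list had an SD of 0.593 between libraries within groups, which is larger than that shift. NEAT1, an RNA of nuclear paraspeckles, fell from 541, 666 and 699 CPM in CG to 437, 425 and 483 CPM in EG (log2 fold change -0.50, edgeR adjusted p = 0.000121). The summed level of the list was between 3683 and 7965 CPM in CG and between 4128 and 4375 CPM in EG. MALAT1 was at 3097, 7237 and 4018 CPM in CG. CG replicate 2 thus stood apart for this nuclear RNA, and without it the log2 fold change of MALAT1 turned from -0.35 to 0.08. The number of MT- genes called higher was 22 of 37 without this library, and also 22 without EG replicate 1. Whether differences in RNA selection between libraries had a part in the MT- results was not tested.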

How the data were processed

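The 6 libraries were mapped to EG and CG by the sample labels. The authors deposited counts of reads per gene, without normalization, and RPKM values made from them (largest relative difference from count, gene length and library total 2.23e-13). The submitters' processing notes name Trimmomatic 0.36, featureCounts of Subread 1.5.1, edgeR 3.12.1 and GRCh38; the aligner, annotation release and strand setting are not given in the sources used here. Counts were analysed with edgeR 4.0.16 in R 4.3.3: TMM scaling, filterByExpr (minimum count 10) and a quasi-likelihood test of EG against CG, adjusted by Benjamini-Hochberg over 18183 genes. The fit was tested on simulated data, where the changed genes it missed all had means under 50 counts; the pass mark was limited to genes above that mean after the first run had failed a stricter one. No replicates were duplicates. Depth was between 33268860 and 40928176 counts, and MT-TF had the fewest counts of the MT- genes. Shares and ratios were compared by two-sided exact permutation tests. Alternatives were DESeq2 1.42.0, limma 3.58.1 on log2(RPKM + 1) and log2(RPKM + 0.1), other scalings, no filter, a replicate block and each library left out. Sequences and shared stretches came from GENCODE 29 transcripts. All MT- genes were named; in each list the genes with the smallest p in each direction and the highest RPKM, and regulators fixed by name. Members and lists were chosen with earlier results of these data known. Figures and other steps used Python 3.11.15, numpy 2.4.6, scipy 1.17.1, pandas 2.3.3, matplotlib 3.10.9 and biopython 1.88.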

Additional observations from a re-analysis of the deposited data

How the results depend on the processing

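All genes tested had a median log2 fold change of -0.01, which moved to -0.06 with library sizes alone and to -0.05 with upper-quartile factors. The number of MT- genes called higher was 28 and became 23 with either of these, 29 with DESeq2, 30 without the low-count filter and 30 with TMM factors computed without the MT- genes, and 7 and 7 with limma on log2(RPKM + 1) and log2(RPKM + 0.1). With 1 library left out it lay between 22 and 29, and the number called lower between 0 and 1 (MT-RNR1 without CG replicate 1). No pairing by replicate number was seen. The correlations of same-numbered libraries were -0.118, 0.00725 and -0.0772, and those of the other pairs ran from -0.0398 to 0.115. The labels do not say whether same-numbered libraries were prepared together. With the number as a replicate block, 27 MT- genes were called higher, all among the 28, and MT-TK was lost. Setting the library size to the total on MT- genes lowers every gene alike (median of all genes -0.25), so the sign turned by construction for genes with a positive change smaller than that of the MT- total, which were MT-TF (-0.16), MT-TI (-0.0107), MT-TQ (-0.0879), MT-TM (-0.0819), MT-ND2 (-0.0434), MT-TW (-0.00297), MT-CO1 (-0.0292), MT-TS1 (-0.13), MT-TK (-0.0286), MT-ATP8 (-0.017), MT-ATP6 (-0.0435), MT-CO3 (-0.0199), MT-TG (-0.15), MT-ND3 (-0.0881), MT-TR (-0.19), MT-ND4L (-0.0211), MT-ND4 (-0.0561), MT-TH (-0.0815), MT-TS2 (-0.11), MT-TL2 (-0.0945), MT-ND5 (-0.037), MT-TE (-0.0125), MT-CYB (-0.0578), MT-TT (-0.0226). With 1 library left out, the log2 fold change ran from -0.0628 to 0.37 for MT-TF, -0.24 to 0.15 for MT-RNR1, -0.0224 to 0.0268 for SDHD, -0.0795 to 0.038 for CYC1, -0.58 to 0.0805 for MALAT1 and -0.11 to 0.12 for NRF1, none of which was called with all libraries. SDHD also turned to 0.00888 with TMM without MT- genes, 0.00311 with DESeq2 and 0.00020 without the filter. MRPS34 turned to -0.0167 with upper-quartile factors, -0.0194 with library sizes alone, -0.0193 and -0.0194 with limma. ELAC2 turned to -0.00513 with upper-quartile factors, -0.00775 with library sizes alone, -0.00682 and -0.00737 with limma. KIAA0391 turned to -0.0159 with upper-quartile factors, -0.0182 with library sizes alone, -0.0168 and -0.0184 with limma. List medians moved, in the order upper-quartile factors, library sizes alone and limma with 0.1 added, to 0.0506, 0.0481 and 0.0472 for nuclear complex I, -0.0511, -0.0536 and -0.0521 for RNA processing, -0.0904, -0.0931 and -0.0914 for mitochondrial ribosomal proteins, and 0.0777, 0.0753 and 0.075 for all nuclear subunits. With limma and 1 added they were 0.0398 for nuclear complex I, 0.0773 for complex II and 0.0697 for all nuclear subunits. The synthetases were at -0.11 with limma and 0.1 added, and the nuclear copies at -0.19 without the filter. The median of all nuclear subunits ran from 0.13 to 0.15 with 1 library left out, and 14 and 15 of them were called higher by the limma fits, beside 24. The difference in log2 ratio of tRNA to protein genes, close to 0, was 0.0202 with a mean of log2 counts and ran from -0.0217 to 0.0172 with 1 library left out. That of MT-ND6 to the heavy-strand protein genes ran from -0.00158 to 0.0661, and that of nuclear to MT- subunits of complex III from -9.42e-05 to 0.10. The cause of these moves was not tested. With groups of 3 libraries no share or ratio could reach an exact p below 0.1, and MT-TF, with the fewest counts, had the widest error of the MT- genes.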
